A study of Homo sapiens with 32 samples.

Results

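Matrix metalloproteinases and their tissue inhibitors, the TIMPs, were followed across 32 RNA-Seq libraries of MCF10A and MDA-MB-231 cells. Their members were 7 metalloproteinase genes (MMP1, MMP3, MMP9, MMP10, MMP13, MMP14 and MMP28) and 3 inhibitor genes (TIMP1, TIMP2 and TIMP3), found in the gene table of each line by symbol and protein-coding class. They are 10 of 60554 listed genes, of which 19815 are protein-coding. MCF10A had little collagenase mRNA and much TIMP1, and its TIMP3 mRNA rose about 6-fold in hypoxia. MDA-MB-231 had abundant MMP1, MMP14 and TIMP3 mRNA, and its MMP1 mRNA rose about 2-fold in hypoxia.

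Matrix metalloproteinases are zinc-dependent endopeptidases that cleave collagens, laminins, fibronectin and other proteins outside the cell. Most are secreted as inactive precursors whose propeptide has to be removed, and some are anchored in the plasma membrane. TIMPs bind the active site of the mature enzymes, so the balance of both sides sets how much matrix is cleaved, and they are studied in breast cancer for their part in invasion.

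MCF10A is an immortalised, non-tumourigenic breast epithelial line and MDA-MB-231 a triple-negative breast cancer line. Cells of each line were kept in normoxia (N) or for 24 hours at 0.5% O2 (H), and part of each received 2.5 µM PP242, an inhibitor of both mTOR complexes, over 3 hours, which gave the conditions NPP (normoxia) and HPP (hypoxia). Total mRNA (T) and mRNA bound to polysomes (P) were sequenced from each, which gave 8 groups of 2 biological replicates per line and 16 libraries per line. Library totals ran from 30302497 to 46032327 counts in MCF10A and from 18340916 to 39536845 in MDA-MB-231. Each line is 1 cell line in culture, so the line comparison cannot be told apart from any other difference between both cultures or their tables.

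The labels were checked against marker genes, with levels as CPM, the count per 1000000 counts of the tested protein-coding genes after TMM scaling. Libraries labelled MCF10A held the basal keratin genes KRT5 (1190 to 3270 CPM), KRT14 (458 to 4200 CPM) and KRT17 (48.5 to 1030 CPM). The epithelial markers CDH1, which encodes E-cadherin, and TP63 stayed at or below 0.361 and 0.226 CPM in all 16 of them, while VIM ran from 1690 to 9370 CPM, FN1 from 1060 to 8620 CPM and CDH2 from 28.2 to 87.7 CPM. DSP, a desmosome gene, stood at 15.2 to 98 CPM. The near absence of CDH1 and TP63 beside abundant mesenchymal genes goes against an epithelial label, whereas the keratin genes and DSP go with it. MCF10A therefore stands here for the libraries labelled so, and comparisons between lines are between libraries with these labels. They also held 64.1 to 238 CPM of DCN, a fibroblast marker, whereas the other fibroblast marker, LUM, did not pass 0.0483 CPM. CD68, a macrophage marker, stood at 35.4 to 140 CPM, and PTPRC of leukocytes did not pass 0.101 CPM. In MDA-MB-231 KRT5 did not pass 0.284 CPM and VIM ran from 3110 to 6080 CPM. FN1 ran from 77 to 283 CPM there, CDH2 did not pass 1.53 CPM and CD68 stood at 72.4 to 120 CPM. Of the receptor genes that define triple-negative cells, ESR1 and PGR did not pass 0.215 and 0.625 CPM in MDA-MB-231. ERBB2, which encodes HER2, stood at 25.7 to 46.5 CPM. The hypoxia marker CA9 rose in hypoxic total RNA of MCF10A by 5.95 on the log2 scale (adjusted p = 0.000161). In MDA-MB-231 it rose by 5.46 (adjusted p = 0.000445).

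On GRCh38, by the GENCODE annotation, 4 members lie in the cluster of 9 metalloproteinase genes on chromosome 11, which spans 435 kb from 102520508 to 102955732. All 9 genes are on the minus strand, in the order MMP7, MMP20, MMP27, MMP8, MMP10, MMP1, MMP3, MMP12 and MMP13. MMP10 spans 102770502 to 102780628, MMP1 102789401 to 102798160, MMP3 102835801 to 102843609 and MMP13 102942995 to 102955732. Outside the cluster, MMP14 lies on chromosome 14 (22836560 to 22849041, plus strand), MMP28 on chromosome 17 (35756249 to 35795707, minus strand) and MMP9 on chromosome 20 (46008908 to 46016561, plus strand). TIMP1 lies on chromosome X (47582408 to 47586789, plus strand), TIMP2 on chromosome 17 (78852977 to 78925387, minus strand) and TIMP3 on chromosome 22 (32801705 to 32863041, plus strand). The libraries did not keep strand, so reads from overlapping genes on opposite strands could not be separated. Exons of WTAPP1 overlap 223 exon bases of MMP1, but WTAPP1 had at most 1 count in any library. TIMP2 shares 367 exon bases with an opposite-strand long noncoding RNA that had at most 242 counts, against at least 4675 for TIMP2.

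The 250 bases before the RefSeq start site (GRCh38.p14) are shown for TIMP3, which rose in MCF10A with hypoxia, for MMP14, which rose there with hypoxia and PP242 in polysomal RNA, and for TIMP1, which was not called in any treatment comparison. Capitals mark the core letters ACGTG or GCGTG of the site bound by hypoxia-inducible factors, searched on both strands. The TIMP3 stretch is chr22:32801455-32801704, the MMP14 stretch chr14:22836335-22836584 and the TIMP1 stretch chrX:47582186-47582435, all on the plus strand.
TIMP3: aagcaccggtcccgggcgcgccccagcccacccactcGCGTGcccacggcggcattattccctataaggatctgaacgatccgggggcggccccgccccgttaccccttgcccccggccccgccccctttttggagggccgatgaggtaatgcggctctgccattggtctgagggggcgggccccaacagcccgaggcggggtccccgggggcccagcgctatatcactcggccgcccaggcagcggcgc
MMP14: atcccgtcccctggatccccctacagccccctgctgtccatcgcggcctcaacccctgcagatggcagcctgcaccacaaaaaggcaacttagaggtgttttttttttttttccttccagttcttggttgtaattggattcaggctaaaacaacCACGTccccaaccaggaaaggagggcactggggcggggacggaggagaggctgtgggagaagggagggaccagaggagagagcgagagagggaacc
TIMP1: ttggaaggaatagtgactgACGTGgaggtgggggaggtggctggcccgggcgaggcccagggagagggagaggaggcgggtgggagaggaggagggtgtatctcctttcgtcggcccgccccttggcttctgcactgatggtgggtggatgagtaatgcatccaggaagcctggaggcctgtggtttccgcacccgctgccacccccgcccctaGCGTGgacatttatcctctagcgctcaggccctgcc
The TIMP3 match begins 213 bases before the start, the MMP14 match 96 bases before it on the reverse strand, and the TIMP1 matches 231 and 36 bases before it. The core was present in all 4 members with an entry in the promoter table, these 3 and MMP10, and in 43.2% of 35116 promoter stretches of the same length. The AP-1 letters TGACTCA, on either strand, were in none of the 4 and in 4.2% of all stretches. MMP1, MMP3, MMP9, MMP13, MMP28 and TIMP2 had no entry in that table.

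In normoxic total RNA the members covered a wide range of levels, shown in the plot of levels by library. Per kilobase of exon, the order in MCF10A was TIMP1 (498 CPM per kb), TIMP2 (47.3), MMP14 (9.94), TIMP3 (4.40), MMP28 (0.743) and MMP3 (0.496), and the replicates of neighbours in this order did not overlap. MMP1, MMP9, MMP13 and MMP10 followed at or below 0.0125 CPM per kb and could not be ordered. In MDA-MB-231 the order was MMP1 (98.5 CPM per kb), TIMP1 (83.3), TIMP3 (82.3), MMP14 (51.4), TIMP2 (42.0) and MMP3 (0.254), where the replicates of TIMP3 overlapped those of both TIMP1 and MMP1. MMP13, MMP10, MMP28 and MMP9 were at or below 0.0919 CPM per kb there. In normoxic polysomal RNA TIMP1 led in both lines, with 1390 CPM per kb for MCF10A. In MDA-MB-231 the replicates of TIMP1 (149 CPM per kb), MMP1 (122) and TIMP3 overlapped one another, as did those of TIMP2 and MMP14.

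**Figure D1:**
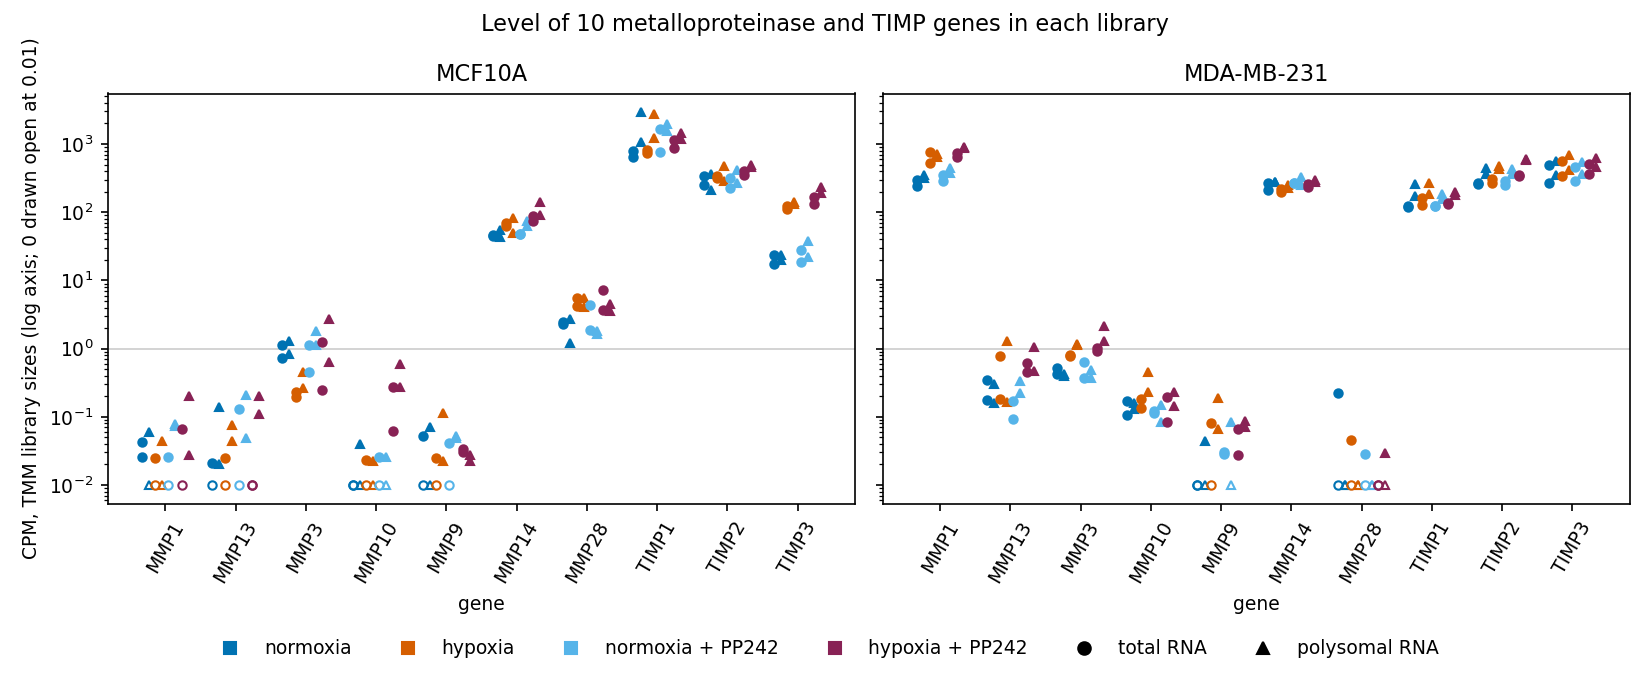
Level of each member in every library, as CPM on a log axis, in MCF10A and MDA-MB-231. Circles are total and triangles polysomal RNA, colours are the 4 conditions, and open symbols at the bottom are libraries with 0 counts. MMP1 lies between 242 and 906 CPM in MDA-MB-231 and never above 0.203 CPM in MCF10A.

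Along the cluster on chromosome 11, MMP1 was the only gene above 3 CPM in either line (plot of levels along the cluster). In MDA-MB-231 it ran from 242 to 906 CPM, and its neighbours MMP10 and MMP3 did not pass 0.457 and 2.11 CPM. In MCF10A the highest values were 2.73 CPM for MMP3, a stromelysin, and 1.13 CPM for MMP7, known as matrilysin. MMP8, MMP12, MMP20 and MMP27 had 0 counts in all 16 MCF10A libraries. In MDA-MB-231 each of these 4 had at most 10 counts in a library. MMP7, MMP8, MMP20 and MMP27 had their highest counts there in normoxic total replicate 2, the shallowest library, with 8, 10, 3 and 4 counts.

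**Figure D2:**
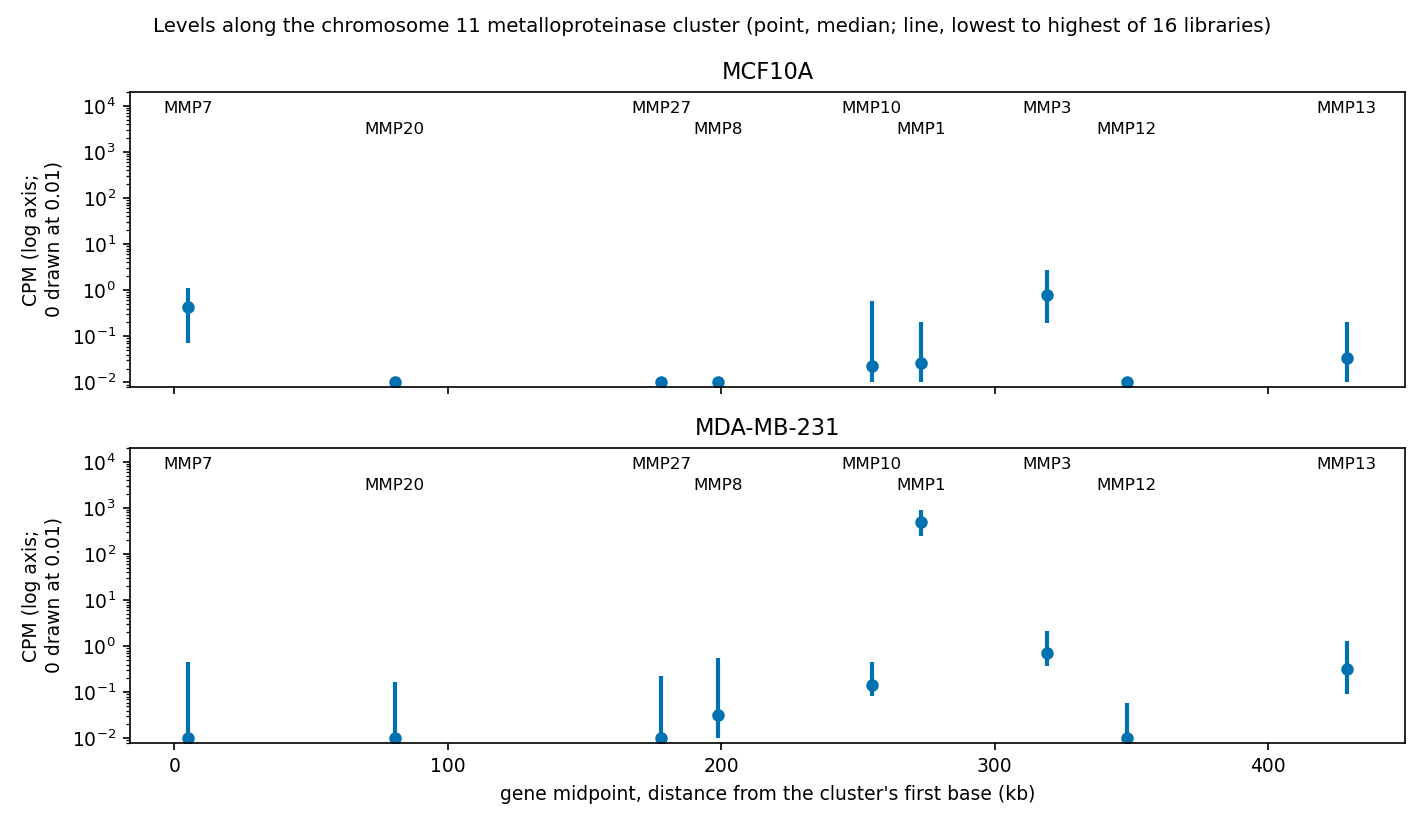
Levels of the 9 genes of the chromosome 11 cluster by the distance of each gene's midpoint from the cluster's first base. Points are medians and lines run from the lowest to the highest of 16 libraries, on a log CPM axis with 0 drawn at 0.01, and MMP1 of MDA-MB-231 stands at a median of 484 CPM.

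Whether hypoxia or mTOR inhibition changed these mRNAs was tested with edgeR's quasi-likelihood test over all tested genes of a line, and a gene was called at a Benjamini-Hochberg adjusted p under 0.05. Of the 10 members, 7 had enough counts to be tested in MCF10A, where MMP1, MMP9 and MMP13 did not, and 7 in MDA-MB-231, where MMP9, MMP10 and MMP28 did not. Hypoxia called 1 of 7 members in MCF10A total RNA and 1 of 7 in its polysomal RNA, where 1.54% and 1.49% of all 13124 genes were called. It called 1 of 7 in MDA-MB-231 in each fraction, against 1.27% and 2.29% of 13510 genes. Hypoxia with PP242 called 1 of 7 in MCF10A total and 3 of 7 in polysomal RNA, against 14.9% and 22.2% of genes, and 1 of 7 and 3 of 7 in MDA-MB-231, against 13.2% and 19.4%. One of the 3 in MCF10A polysomal RNA was MMP10, which passed the filter only through those libraries, leaving 2 of the 6 others. All of these members rose. PP242 in normoxia called none in either line, where 0.648% and 0.823% of genes were called in MCF10A, against 0.555% and 1.95% of those in MDA-MB-231, and no member had an unadjusted p under 0.05 in these 4 comparisons or was called by DESeq2. PP242 added to hypoxia called none either, against 3.74% and 6.5% for MCF10A, then 3.78% and 11.5% for MDA-MB-231. At an unadjusted p under 0.05 that comparison held MMP10 in total RNA and MMP3, MMP10 and MMP14 in polysomal RNA of MCF10A, and MMP1 and TIMP2 in polysomal RNA of MDA-MB-231, where DESeq2 called TIMP2 (adjusted p = 0.0392). The comparisons with normoxia share the normoxic libraries. In bulk libraries, more mRNA per cell and more cells that express a gene cannot be told apart.

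MMP1 encodes interstitial collagenase, which cuts fibrillar collagens. In total RNA of MDA-MB-231 it stood at 242 and 297 CPM in normoxia, 529 and 756 in hypoxia, 290 and 349 with PP242 and 746 and 640 with both. In polysomal RNA it stood at 317 and 349 CPM in normoxia, 709 and 638 in hypoxia, 370 and 440 with PP242 and 887 and 906 with both. Every hypoxic library was above every normoxic one, with or without PP242. Hypoxia raised MMP1 2.38-fold in total RNA (log2 1.25 ± 0.18 SE, adjusted p = 0.00213) and 2.02-fold in polysomal RNA (log2 1.02 ± 0.18, adjusted p = 0.00848). Hypoxia with PP242 raised it 2.57-fold in total (adjusted p = 0.000438) and 2.69-fold in polysomal RNA (adjusted p = 0.000126). The call in hypoxic polysomal RNA was lost without normoxic polysomal replicate 1 (adjusted p = 0.0509) or replicate 2 (adjusted p = 0.0524), and that in hypoxic total RNA when only its 4 libraries were fitted (adjusted p = 0.0588). In MCF10A MMP1 had 0 to 9 counts per library and was not tested.

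MMP13 encodes collagenase 3. It had 3 to 36 counts per library in MDA-MB-231, between 0.092 and 1.30 CPM, and 0 to 9 in MCF10A. In polysomal RNA of MDA-MB-231 it stood at 0.305 and 0.161 CPM in normoxia, 1.30 and 0.163 in hypoxia and 1.05 and 0.477 with hypoxia and PP242. One hypoxic replicate was above both normoxic ones and the other lay between them, and the change was not called (log2 1.64 ± 0.87, adjusted p = 0.357).

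MMP3 encodes stromelysin 1, which cleaves proteoglycans, laminin and fibronectin and activates other metalloproteinase precursors. In polysomal RNA of MDA-MB-231 it stood at 0.392 and 0.420 CPM in normoxia (9 and 13 counts), 1.18 and 1.11 in hypoxia (31 and 34 counts), 0.368 and 0.484 with PP242 (13 and 16 counts) and 2.11 and 1.31 with both (72 and 55 counts). The normoxic and hypoxic groups did not overlap, and the highest values were those with hypoxia and PP242. That rise was 4.15-fold (log2 2.05 ± 0.38, adjusted p = 0.00238), while hypoxia alone gave log2 1.48 ± 0.40 (adjusted p = 0.0668). In total RNA the difference with hypoxia and PP242 was log2 1.07 ± 0.40 and was not called (adjusted p = 0.0919).

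In MCF10A MMP3 was lower in hypoxia in every library, although not by an amount that passed the test. It stood at 1.12 and 0.716 CPM in normoxic and 0.234 and 0.197 in hypoxic total RNA, and at 1.29 and 0.822 in normoxic and 0.451 and 0.268 in hypoxic polysomal RNA. The differences were log2 -2.07 ± 0.84 (adjusted p = 0.377) and -1.57 ± 0.82 (adjusted p = 0.493), and the first was called when only its 4 libraries were fitted (-2.06, adjusted p = 0.0463). With hypoxia and PP242 the replicates were apart, at 0.247 and 1.24 CPM in total and 0.639 and 2.73 CPM in polysomal RNA. MMP7, in the same cluster, stood at 17 and 17 counts in normoxic and 3 and 9 counts in hypoxic total RNA of MCF10A, and it was not called either.

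MMP10 encodes stromelysin 2. In MCF10A its polysomal counts were 0 and 2 in normoxia, 0 and 1 in hypoxia, 1 and 0 with PP242 and 10 and 26 with both. Its total RNA counts were 0 and 0, 1 and 0, 1 and 0, and 2 and 8 in the same order. It passed the filter on low counts only through the libraries with hypoxia and PP242, so its polysomal call (adjusted p = 0.0304) follows in part from how it was kept. The ratio of polysomal counts was 17.6 (95% exact interval 4.53 to 151, counting error only), and in total RNA the level was at least 4.6-fold higher, set against a floor of 3 counts over the normoxic group. The polysomal call was lost without normoxic polysomal replicate 1 (adjusted p = 0.157) or 2 (adjusted p = 0.0708), without HPP polysomal replicate 2 (adjusted p = 0.172), and with DESeq2 (adjusted p = 0.0934). In MDA-MB-231 MMP10 had 3 to 12 counts in each library.

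MMP9 encodes gelatinase B, which degrades denatured collagen and the type IV collagen of basement membranes. It had 0 to 3 counts per library in MCF10A and 0 to 5 in MDA-MB-231, and was tested in neither. MMP9 shares 430 exon bases with SLC12A5-AS1 on the opposite strand, which had at most 2 counts in MCF10A libraries and 6 in those of MDA-MB-231, so reads of the pair cannot be told apart. A floor of 3 counts corresponded to between 0.0601 and 0.171 CPM in these libraries, so its level was at or near the limit of detection at this depth.

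MMP14 encodes membrane type 1 metalloproteinase, which cleaves collagen at the cell surface and activates the precursor of gelatinase A. In polysomal RNA of MCF10A it stood at 42.7 and 54.1 CPM in normoxia, 50.1 and 83.3 in hypoxia, 75.5 and 62.8 with PP242 and 90.2 and 141 with both. In total RNA it stood at 46.5 and 45.3 CPM in normoxia, 68.3 and 62.3 in hypoxia, 47.5 and 47.9 with PP242 and 87.7 and 74.1 with both. The libraries with hypoxia and PP242 were above the normoxic ones in both fractions. The rise in polysomal RNA was 2.39-fold (log2 1.25 ± 0.29, adjusted p = 0.0105). The difference in total RNA was log2 0.82 ± 0.29 and was not called (adjusted p = 0.0799). It was called in 2 of 24 alternatives, DESeq2 (adjusted p = 0.0238) and a replicate block within each fraction (adjusted p = 0.0289). The polysomal call was lost without normoxic polysomal replicate 1 (adjusted p = 0.0871) or without HPP polysomal replicate 2 (adjusted p = 0.114). In MDA-MB-231 MMP14 ran from 198 to 330 CPM, and its differences from normoxia lay between log2 -0.21 ± 0.15 and 0.17 ± 0.15.

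MMP28 encodes epilysin, the enzyme found in keratinocytes and other epithelia. In total RNA of MCF10A it stood at 2.30 and 2.44 CPM in normoxia, 4.22 and 5.56 in hypoxia, 1.89 and 4.31 with PP242 and 3.74 and 7.29 with both. In polysomal RNA it stood at 2.72 and 1.2, 5.45 and 4.01, 1.81 and 1.62, and 3.55 and 4.44 CPM in the same order. The hypoxic libraries lay above the normoxic ones in both fractions, but the differences were not called, at log2 1.04 ± 0.48 in total (adjusted p = 0.46) and 1.28 ± 0.48 in polysomal RNA (adjusted p = 0.283). In MDA-MB-231 it had 0 counts in 12 of 16 libraries.

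**Figure D3:**
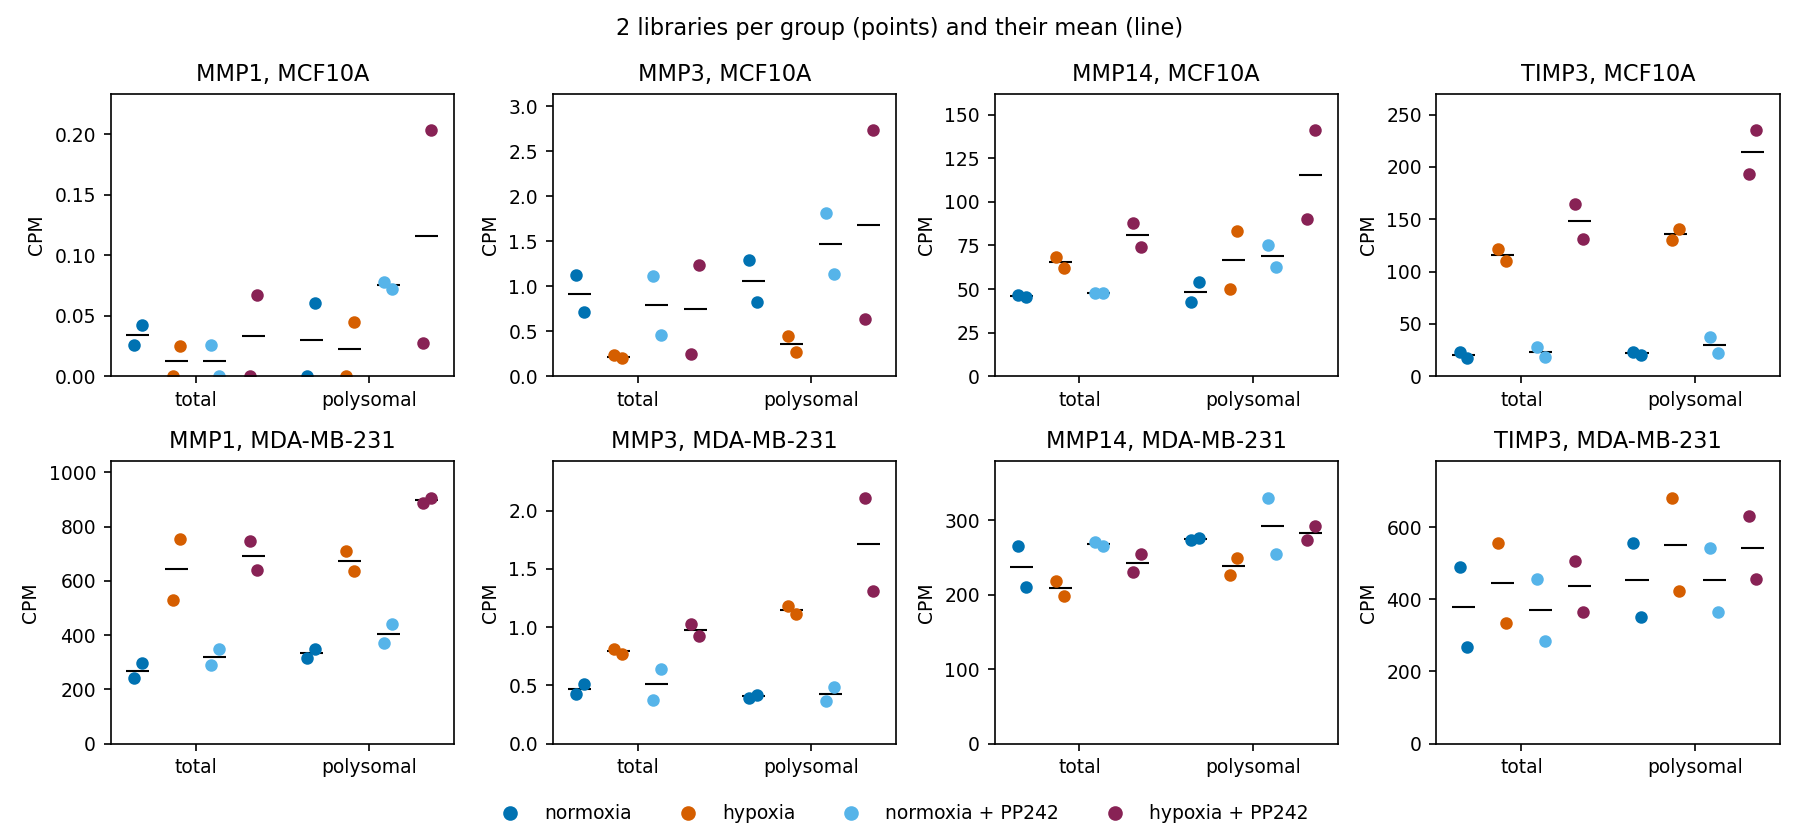
CPM of MMP1, MMP3, MMP14 and TIMP3 in each library of MCF10A and MDA-MB-231, on linear axes that differ between plots. Points are the 2 libraries of a group and lines their mean. TIMP3 of MCF10A runs from 17.2 to 37.7 CPM without hypoxia and from 110 to 235 CPM with it.

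TIMP3 encodes the inhibitor that stays bound to the extracellular matrix and also inhibits several ADAM and ADAMTS proteases. In total RNA of MCF10A it stood at 23.2 and 17.2 CPM in normoxia, 122 and 110 in hypoxia, 28.3 and 18.3 with PP242 and 165 and 131 with both. In polysomal RNA it stood at 23.2 and 20.2 CPM in normoxia, 130 and 141 in hypoxia, 37.7 and 21.7 with PP242 and 193 and 235 with both. All 8 hypoxic libraries were above all 8 normoxic ones. Hypoxia raised TIMP3 5.73-fold in total RNA (log2 2.52 ± 0.32, adjusted p = 0.00203) and 6.23-fold in polysomal RNA (log2 2.64 ± 0.32, adjusted p = 0.00155). Hypoxia with PP242 raised it 7.33-fold in total (adjusted p = 0.000346) and 9.87-fold in polysomal RNA (adjusted p = 0.000146). The call in hypoxic total RNA was lost without normoxic total replicate 2 (log2 2.32, adjusted p = 0.0712), and that in hypoxic polysomal RNA when only its 4 libraries were fitted (log2 2.71, adjusted p = 0.0697).

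In MDA-MB-231 TIMP3 was high in every group, and no change of it was called. In total RNA it stood at 490 and 267 CPM in normoxia, 555 and 335 in hypoxia, 457 and 284 with PP242 and 506 and 365 with both. In polysomal RNA it stood at 557 and 352, 681 and 422, 543 and 365, and 630 and 456 CPM in the same order. Replicate 1 was above replicate 2 in 8 of 8 groups, by 1.38 to 1.84 times. The hypoxic difference was log2 0.23 ± 0.36 in total and 0.28 ± 0.36 in polysomal RNA.

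TIMP1 encodes a secreted inhibitor of most soluble metalloproteinases. In total RNA of MCF10A it stood at 789.1 and 652.4 CPM in normoxia, 731 and 813 in hypoxia, 759 and 1680 with PP242 and 886 and 1140 with both. In polysomal RNA it stood at 2930 and 1080, 2760 and 1220, 1950 and 1530, and 1430 and 1170 CPM in the same order. The replicates of one group differed by up to 2.71 times, and no treatment difference was called. The highest total value came from the library with the lowest TMM factor of its line (0.764), and the part of that scaling was not tested. In MDA-MB-231 TIMP1 ran from 118 to 163 CPM in total and from 155 to 271 CPM in polysomal RNA, with differences from normoxia between log2 -0.33 ± 0.21 and 0.28 ± 0.21.

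TIMP2 encodes the inhibitor that, with MMP14, forms the complex that activates gelatinase A. In polysomal RNA of MDA-MB-231 it stood at 369 and 445 CPM in normoxia, 426 and 479 in hypoxia, 359 and 429 with PP242 and 610 and 578 with both. In total RNA it stood at 256 and 266, 306 and 265, 284 and 248, and 344 and 353 CPM in the same order. The libraries with hypoxia and PP242 were the highest of both fractions. The polysomal rise was 1.46-fold (log2 0.54 ± 0.15, adjusted p = 0.0189). The difference in total RNA was log2 0.42 ± 0.15 and was not called (adjusted p = 0.073). It was called in 12 of 24 alternatives, among them DESeq2 (adjusted p = 0.0175). Most of these 12 only left out a library that is not part of the comparison, so they are not independent. The polysomal call was lost without normoxic polysomal replicate 1 (adjusted p = 0.105) and without HPP polysomal replicate 1 (adjusted p = 0.135) or 2 (adjusted p = 0.0718). In MCF10A TIMP2 ran from 213 to 499 CPM, and hypoxia with PP242 gave log2 0.75 ± 0.35 in polysomal RNA (adjusted p = 0.148). That difference was called in 1 of 24 alternatives, a replicate block within each fraction (adjusted p = 0.0286).

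**Figure D4:**
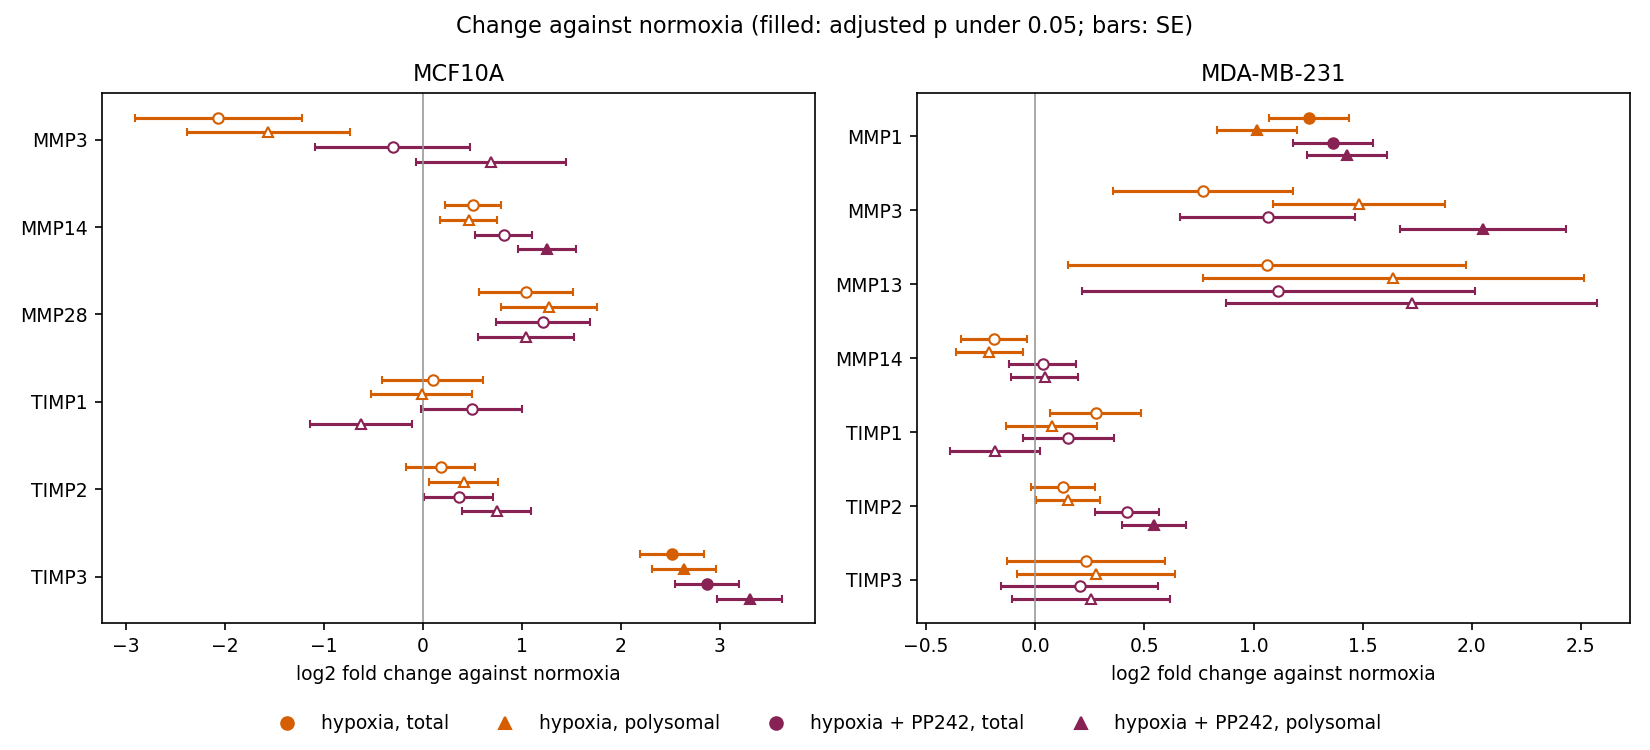
Log2 fold change of tested members against normoxia with hypoxia (orange) and with hypoxia and PP242 (purple), in total (circles) and polysomal (triangles) RNA. Bars are standard errors and filled symbols passed an adjusted p of 0.05. TIMP3 of MCF10A lies between 2.52 and 3.30, and MMP1 of MDA-MB-231 between 1.02 and 1.43. MMP10 of MCF10A, near 0 counts in normoxia, is left out.

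In MCF10A some marker genes moved with hypoxia and PP242 as well. KRT14 rose 5.18-fold and KRT17 9.80-fold in total RNA, VIM 3.31-fold and FN1 3.18-fold, and PECAM1, an endothelial gene, rose 5.88-fold from a level under 0.3 CPM. CD68 rose 3.02-fold in total RNA (adjusted p = 0.0121). In polysomal RNA KRT14 rose 4.84-fold and KRT17 5.09-fold, while CD68 was not called (1.52-fold, adjusted p = 0.242). VIM was not called there either (log2 -0.38, adjusted p = 0.605). It stood at 3550 and 2330 CPM in normoxia and 2490 and 2040 CPM with hypoxia and PP242, and these groups overlapped. The summed level of the 4 mesenchymal markers ran from 3910 to 14500 CPM over the 16 libraries, with FN1 the most abundant, and that of the 6 basal markers from 1730 to 8470 CPM, with KRT5 the most abundant. Their part in the changes of MMP14 and TIMP3 was not tested. In hypoxia alone none of the basal, mesenchymal or other cell type markers was called in MCF10A, where the fold in total RNA was 4.88 for KRT17 (adjusted p = 0.17), 3.28 for KRT14 (adjusted p = 0.106) and 4.17 for PECAM1 (adjusted p = 0.199). In MDA-MB-231 DSP rose with hypoxia and PP242 by 2.05-fold in total RNA (adjusted p = 0.00774) and 2.34-fold in polysomal RNA (adjusted p = 0.00181), where CD68 fell 1.38-fold (adjusted p = 0.0234). FN1 rose in that polysomal RNA as well, from 77 and 80.9 CPM in normoxia to 260 and 206 CPM with hypoxia and PP242. Their part in the changes of MMP1, MMP3 and TIMP2 was not tested.

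Whether polysomal RNA changed otherwise than total RNA was tested as translational efficiency (Te), the change of polysomal minus that of total RNA. Total RNA includes the polysomal mRNA, and no free fraction was sequenced. Each library was scaled to its own counts, so a shift shared by most mRNAs would not show. None of the 7 members was called with hypoxia, PP242 or both, in either line. Of all genes, 0% were called in each of the 3 comparisons of MCF10A. The shares in MDA-MB-231 were 0.0148% with hypoxia, 0.34% with PP242 and 0.696% with both. No member had an unadjusted p under 0.05 in these comparisons, and DESeq2 called none. For MMP1 in MDA-MB-231 Te changed by log2 -0.24 ± 0.25 in hypoxia and 0.07 ± 0.25 with hypoxia and PP242, and for TIMP3 in MCF10A by 0.12 ± 0.43 and 0.43 ± 0.43. MMP3 had the largest positive estimates with hypoxia and PP242, 0.99 ± 0.56 in MDA-MB-231 and 1.00 ± 1.09 in MCF10A. TIMP1 had the most negative ones among members away from 0 counts, -1.12 ± 0.72 in MCF10A and -0.34 ± 0.29 in MDA-MB-231. Replicates varied more in MCF10A, whose common biological coefficient of variation was 0.325, against 0.150 for MDA-MB-231.

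**Figure D5:**
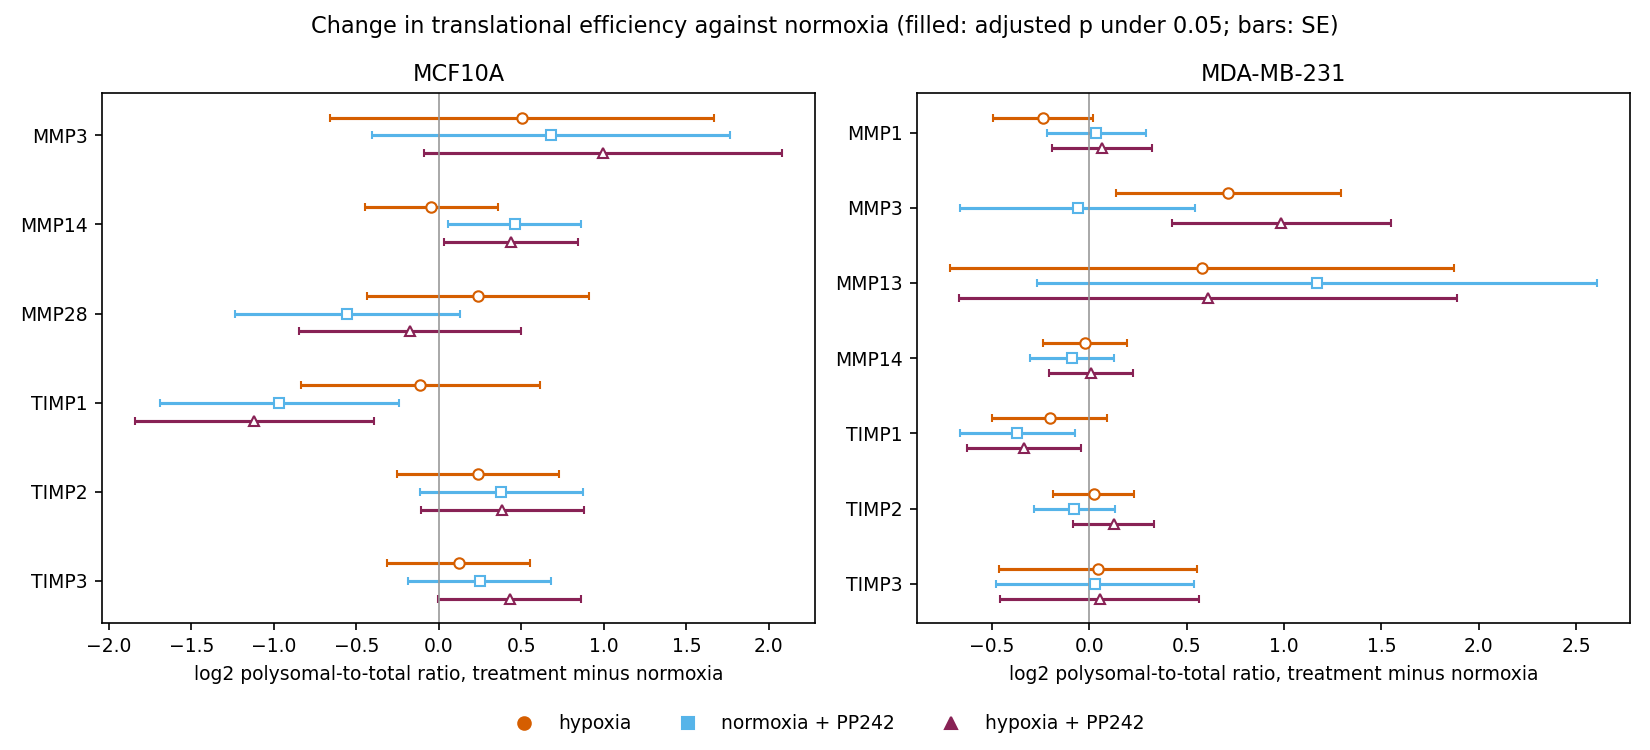
Change of translational efficiency against normoxia, as log2 polysomal-to-total ratio, for tested members other than MMP10 with hypoxia (circles), PP242 (squares) and both (triangles). Bars are standard errors and no symbol is filled, since none passed an adjusted p of 0.05. MMP3 with hypoxia and PP242 lies at 0.99 in MDA-MB-231 and TIMP1 at -1.12 in MCF10A.

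The lines were compared in a joint fit of all 32 libraries, in which 9 members could be tested. The CPM values given for each line were scaled within that line and cannot be set against each other, whereas the folds between lines come from the joint fit with 1 scaling. In normoxia 6 of 9 differed in total RNA, where 40.7% of 14298 genes did, and 6 of 9 in polysomal RNA, where 45.4% did. Of the 9, MMP1 and MMP13 had enough counts to be tested in MDA-MB-231 alone and MMP10 and MMP28 in MCF10A alone, and of the 5 tested within each line, 3 differed in total and 4 in polysomal RNA. MMP14 was higher in MDA-MB-231 by 3.75-fold in total RNA (log2 1.91 ± 0.25, adjusted p = 2.67e-06) and 4.55-fold in polysomal RNA. TIMP3 was higher by 13.6-fold (log2 3.77 ± 0.42, adjusted p = 2.51e-07) and 16.8-fold. TIMP1 was lower by 8.26-fold (log2 -3.05 ± 0.43, adjusted p = 6.96e-06) and 11.5-fold. Its polysomal difference ran from log2 -4.07 to -2.68 over 30 alternatives and was called in all of them. TIMP2 was not called in total (log2 -0.64 ± 0.28, adjusted p = 0.0767) or polysomal RNA (0.19 ± 0.28, adjusted p = 0.616). In total RNA it was called in 3 of 30 alternatives, among them a replicate block within line and fraction (adjusted p = 0.0475). Without TMM the median log2 ratio of normoxic mean CPM between lines, over genes with counts in both lines, moved from -0.08 to 0.26 in total RNA (13606 genes) and from 0.00 to 0.32 in polysomal RNA (13369 genes), and the log2 differences in total RNA became 2.25 for MMP14, 4.11 for TIMP3, -2.71 for TIMP1 and -0.30 for TIMP2.

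MMP1, MMP28 and MMP10 were near 0 counts in at least one line. MMP1 had 11977 counts in normoxic total RNA of MDA-MB-231 over both replicates against 3 in MCF10A, a ratio of 5470 (95% exact interval 1870 to 26500), and a ratio of 7020 (2400 to 34000) in polysomal RNA. MMP28 had 204 counts in MCF10A against 4, all in 1 library, in MDA-MB-231, a ratio of 37.2 (14.3 to 138) in total RNA, and was at least 39.5-fold higher in MCF10A in polysomal RNA. MMP10 was at least 2.74-fold higher in MDA-MB-231 in total RNA, from 6 counts against 0, and that call was lost without MDA-MB-231 normoxic total replicate 2 (adjusted p = 0.0663) and without either normoxic total replicate of MCF10A (adjusted p = 0.0802 and 0.108). The intervals of these ratios cover counting error only. In the joint fit MMP3 was lower in MDA-MB-231 by 3.17-fold in polysomal RNA (adjusted p = 0.0493), and that call held in 7 of 30 alternatives, over which the adjusted p ran from 0.0208 to 0.216.

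The effect of hypoxia with PP242 differed between lines for TIMP3 and MMP14. For TIMP3 the effect of hypoxia with PP242 was smaller in MDA-MB-231 by log2 2.58 ± 0.54 in total RNA (log2 difference -2.58, adjusted p = 0.00967) and by 3.08 ± 0.54 in polysomal RNA (-3.08, adjusted p = 0.00226). For hypoxia alone the difference was -2.24 ± 0.54 (adjusted p = 0.095) and -2.45 ± 0.54 (adjusted p = 0.0537). A replicate block within each line called both (adjusted p = 0.00128 and 0.000499), although replicate numbers did not pair every group. The effect of hypoxia with PP242 on MMP14 in polysomal RNA differed by -1.24 ± 0.34 (adjusted p = 0.048), and that call held in 8 of 30 alternatives, with -0.83 (adjusted p = 0.338) without MCF10A HPP polysomal replicate 2. With hypoxia and PP242, 1 of 9 members was called in total and 2 of 9 in polysomal RNA, against 3.31% and 3.6% of genes. With hypoxia alone none was, against 0.266% and 0.329%, although MMP3 and TIMP3 in both fractions and MMP14 in polysomal RNA had an unadjusted p under 0.05, and DESeq2 called TIMP3 in both fractions (adjusted p = 0.00468 and 0.00204). The TIMP3 call in total RNA was lost without MCF10A normoxic total replicate 2 (adjusted p = 0.0732), MDA-MB-231 normoxic total replicate 1 (adjusted p = 0.062) or MDA-MB-231 HPP total replicate 2 (adjusted p = 0.0659).

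Of 17 other family genes, 9 were tested in MCF10A and 7 in MDA-MB-231. MMP19, a secreted metalloproteinase, was the only one called against normoxia in MCF10A, and rose 2.72-fold in hypoxic total RNA (adjusted p = 0.0246) and 4.17-fold in polysomal RNA with hypoxia and PP242 (adjusted p = 0.000699). This was 1 of 9 in each, where 1.54% and 22.2% of all genes were called. It stood at 3.63 and 3.03 CPM in normoxic and 9.42 and 8.68 in hypoxic total RNA. The median over the 9 genes in hypoxic total RNA was log2 0.30, against -0.03 over all genes. In MDA-MB-231 MMP15, a membrane-type enzyme like MMP14, was the only one called against normoxia, and rose 2.16-fold in total RNA with hypoxia and PP242 (adjusted p = 0.013), which is 1 of 7 where 13.2% of all genes were called.

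Between lines, 5 of 10 tested other family genes were called in normoxic total RNA, 4 lower and 1 higher in MDA-MB-231, against 40.7% of all genes. MMP2, the gelatinase A that MMP14 activates, ran from 63.2 to 139 CPM in MCF10A and from 0.547 to 1.48 CPM in MDA-MB-231, 73.7-fold lower in normoxic total RNA (adjusted p = 5.17e-11). MMP17, a membrane-bound enzyme, had 485 counts against 4, a ratio of 88.5 (95% exact interval 34.4 to 326). TIMP4 had 123 counts in normoxic total RNA of MDA-MB-231 and 0 in MCF10A, at least 56.2-fold higher.

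Of 13 genes that activate, inhibit or dock these enzymes, 11 were tested in MCF10A, against 12 of MDA-MB-231. With hypoxia and PP242, 4 rose in total RNA of MCF10A and 3 in MDA-MB-231, and none fell, against 14.9% and 13.2% of all genes called. The medians over the list were log2 0.59 and 0.33, against -0.01 and -0.05 over all genes. PLAT, the tissue plasminogen activator, whose product plasmin activates several precursors, rose 4.78-fold in MCF10A (adjusted p = 0.000613) and 5.18-fold in MDA-MB-231 (adjusted p = 0.00434). PLAUR, the urokinase receptor, rose 3.37-fold in MCF10A (adjusted p = 0.016). LRP1, an endocytic receptor for proteases and their inhibitor complexes, rose 3.88-fold there (adjusted p = 0.0172). CD44, a hyaluronan receptor, rose 2.21-fold in MCF10A and 1.66-fold in MDA-MB-231. RECK, a membrane-anchored inhibitor, rose 1.53-fold in polysomal RNA of MDA-MB-231 (adjusted p = 0.0314).

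Between lines this list went both ways in normoxic total RNA, with 5 genes higher and 5 lower in MDA-MB-231 of 12 tested, where 40.7% of all genes were called. PLAT was 6-fold higher (adjusted p = 9e-05) and PLAU, the urokinase, was 5.4-fold higher (adjusted p = 2.02e-05).

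Among 13 AP-1, ETS and RUNX factor genes, transcription factors known to act on several metalloproteinase promoters, all were tested. In hypoxic total RNA 1 of 13 was called in MCF10A, against 1.54% of all genes, and 0 of 13 in MDA-MB-231, against 1.27%. In the joint edgeR fit the difference of the hypoxia effect between lines was called for 0 of 13 in total RNA, against 0.266% of all genes, where ETV4 and JUN had an unadjusted p under 0.05 (log2 -1.35 and adjusted p = 0.187 for JUN). In polysomal RNA it was called for 1 of 13, JUN, against 0.329% (log2 -1.77, MDA-MB-231 minus MCF10A, adjusted p = 0.0427). The gene called in MCF10A was JUN, at 87.8 and 79.9 CPM in normoxia and 306 and 332 in hypoxia (3.81-fold, adjusted p = 0.00533). It stood at 70.8 and 82.3 CPM with hypoxia and PP242, 4.17-fold lower than in hypoxia (adjusted p = 0.00344). Between lines 8 of 13 were higher and 1 lower in MDA-MB-231 in normoxic total RNA, with a list median of log2 1.10 against -0.03 over all genes, of which 40.7% were called. FOSL1, the most abundant of the list in each line, was 2.81-fold higher (adjusted p = 4.13e-05). Scaled within each line, FOSB stood at 0.496 and 0.421 CPM in normoxic total RNA of MCF10A and 3.48 and 3.98 CPM in MDA-MB-231. JUNB went the other way, at 123 and 132 CPM in MCF10A and 41.9 and 39.6 CPM in MDA-MB-231.

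Of 16 matrix genes, 15 were tested in each line. With hypoxia and PP242, 8 rose and none fell in polysomal RNA of MCF10A, with a list median of log2 1.40 against -0.04 over all genes. In MDA-MB-231, 4 rose and 1 fell, with a median of 0.49 against 0.01. Of all genes, 22.2% and 19.4% were called in these comparisons. LAMB3, a chain of laminin-332, rose 10.5-fold in MCF10A (adjusted p = 0.000123) and 1.94-fold in MDA-MB-231 (adjusted p = 0.00241). FN1, fibronectin, rose 6.24-fold (adjusted p = 0.00375) and 2.95-fold (adjusted p = 0.000849). LAMA3, another chain of that laminin, fell 2.77-fold in MDA-MB-231 (adjusted p = 0.0184). In hypoxia alone COL1A1, the fibrillar collagen chain cut by MMP1, MMP13 and MMP14, was the only one called in MCF10A total RNA and rose 3.20-fold (adjusted p = 0.0121), 1 of 15 against 1.54% of all genes, and 0 of 15 were called in MDA-MB-231 total RNA, against 1.27%.

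Of 12 ADAM and ADAMTS genes, the related metalloproteinases that TIMP3 can inhibit, 11 were tested in MCF10A, against 12 of MDA-MB-231. With hypoxia and PP242, 1 rose and 2 fell in polysomal RNA of MCF10A, and 3 rose and 1 fell in MDA-MB-231, against 22.2% and 19.4% of all genes called. ADAM19 fell in both lines, by 4.30-fold in MCF10A (adjusted p = 0.043) and 1.91-fold in MDA-MB-231 (adjusted p = 0.0105). ADAMTS15 fell 10.1-fold in MCF10A (adjusted p = 0.00235), where ADAM12 rose 6.23-fold (adjusted p = 0.0104). ADAM17, the sheddase of TNF, was 1 of the 3 that rose in MDA-MB-231, by 1.68-fold (adjusted p = 0.00312). In the same polysomal RNA ADAM8 stood at 82.8 and 71.2 CPM in normoxia and 149 and 131 CPM with hypoxia and PP242. In hypoxia alone none was called in either line or fraction.

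For the member whose group means varied most in each line, among those with a mean of at least 1 CPM, the genes with the most similar pattern over the 8 group means were sought. In MCF10A this member was TIMP3 (SD of the log2 group means 1.46), and PLD5, GSDMC and B3GNT4 followed it with Pearson correlations of 0.9976, 0.9975 and 0.9975. In MDA-MB-231 it was MMP1 (SD 0.64), and PAM, RAB17 and BNIP3L followed it with correlations of 0.9988, 0.9982 and 0.9929. These are descriptions over 8 groups that share treatments and libraries, picked from all tested genes.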

How the data were processed

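The 32 libraries were made from total and polysome-bound mRNA with a kit that does not keep strand, and were deposited as 1 gene table per line. Per the study's methods, the authors mapped paired-end reads with STAR to GRCh38 and counted genes with RSEM, so the deposited values are expected counts given as whole numbers, not normalized. The labels name GRCh37 instead. Replicates were not pooled, and 0 columns were without a sample. Positions and exon lengths came from GENCODE 44, and promoters from RefSeq.

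Protein-coding genes were kept, filtered by expression in each line, scaled by TMM and fitted with edgeR 4.0.16 (R 4.3.3) using 8 groups per line and 16 in the joint fit, with the quasi-likelihood test and Benjamini-Hochberg adjustment over all genes tested. With 2 libraries a group, an exact two-sided permutation test of one gene could not go below p = 0.333, so none is given. Ratios of genes near 0 counts have 95% exact intervals or a floor of 3 counts over the group, and both cover counting error only. On simulated data, the test recovered 52% of genes changed by log2 2 in MCF10A hypoxic total RNA (13000 genes) and 97% in MDA-MB-231 (13353 genes), and 1% and 68% of those changed by log2 1. The changed genes were drawn from those with a mean above 1 CPM. These shares therefore do not cover MMP3, MMP10 and MMP13, whose medians were under that level.

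Alternatives were DESeq2 1.42.0, no TMM, no filter, all gene classes, replicate blocks, only the libraries compared, a fold threshold, a z-score rule and each library left out. All members are named, and from every other list at most 4 genes a comparison. These were mostly those with the largest change among those called, although not in every comparison. CA9 and the markers are named as checks of the labels, and MMP7, MMP8, MMP12, MMP20, MMP27 and JUN after PP242 were named after their values were seen. The members and lists were chosen with earlier results of these data known. One gene of the list of activators and inhibitors is not reported here.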

Additional observations from a re-analysis of the deposited data

Results flagged for a closer look

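The effect of hypoxia with PP242 differed between lines for 2 members, by the line-by-treatment term of the joint edgeR fit of 32 libraries. For TIMP3 the log2 difference (MDA-MB-231 minus MCF10A) was -2.58 in total RNA (adjusted p = 0.00967) and -3.08 in polysomal RNA (adjusted p = 0.00226). Its log2 change from normoxia was 2.87 and 3.30 in MCF10A. The same changes were 0.20 and 0.26 for MDA-MB-231, where TIMP3 was 13.6-fold higher in normoxic total RNA. For MMP14 in polysomal RNA the difference was -1.24 (adjusted p = 0.048), from 1.25 for MCF10A against 0.04 for MDA-MB-231, and that call held in 8 of 30 alternatives, with an adjusted p of up to 0.338. The tables of both lines were made separately, so line and table cannot be told apart.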

How the results depend on the processing

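Single-gene results were followed only where the main estimate exceeded 2 SE, which leaves out the estimates nearest 0. A change of sign was therefore unlikely beforehand, and none occurred. Over all alternatives 1462 values kept their side of the threshold, 45 gained a call and 66 lost one. The number of called members changed by over 1.5 times in these settings. DESeq2 called 2 in total RNA with hypoxia and PP242 in each line, 1 in polysomal RNA of MDA-MB-231 for PP242 added to hypoxia, and 1 in the line difference of the hypoxia effect in each fraction. Without TMM, PP242 added to hypoxia called 2 in polysomal RNA of MDA-MB-231. Without a filter, 2 were called there with hypoxia in polysomal and 2 with hypoxia and PP242 in total RNA, and 1 in the line difference of the hypoxia effect in polysomal RNA. The line difference for hypoxia with PP242 in polysomal RNA held 1 without TMM, without a filter or with all gene classes. With only the 4 libraries compared, hypoxia called 2 in total and 0 in polysomal RNA of MCF10A and 0 in total RNA of MDA-MB-231, where hypoxia with PP242 called 2. The z-score rule for Te named 1, MMP10, in MCF10A with hypoxia and PP242 at both thresholds. Without TMM, the 85 mean levels of at least 1 CPM changed by factors of 0.874 to 1.11 and 10 moved beyond 1 SD, among them those to 50.7 CPM (MMP14, normoxic total, MCF10A), 263 CPM (MMP14, normoxic polysomal, MDA-MB-231) and 2.62 CPM (MMP28, normoxic total, MCF10A), and with hypoxia and PP242 in polysomal RNA of MDA-MB-231 MMP1 from 896 to 964 CPM and TIMP2 from 594 to 639 CPM. Leaving out each library in turn gave 0 to 1 called members for hypoxia in MCF10A total and MDA-MB-231 polysomal RNA, 1 to 3 for hypoxia with PP242 in MCF10A polysomal and 1 to 2 in MDA-MB-231 total RNA, 0 to 1 for PP242 added to hypoxia in MCF10A polysomal RNA, and, for line differences, 0 to 1 for hypoxia with PP242 in total RNA, 0 to 1 for hypoxia and 1 to 2 for hypoxia with PP242 in polysomal RNA. The cause of these changes was not tested. Folds against a group under 3 counts were given only as a bound or as a ratio whose interval covers counting error.

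Replicate numbers were shared between groups but did not pair every group: deviations of same-numbered libraries correlated at 0.406 to 0.871 among total groups of MCF10A, -0.165 to 0.741 among its polysomal groups, and -0.218 to 0.483 and -0.013 to 0.415 in MDA-MB-231. The 4 pairs of hypoxic and normoxic groups correlated at 0.250 to 0.741. A replicate block called 1 member for PP242 added to hypoxia in MCF10A polysomal RNA. A replicate block within each fraction called 2 there, 4 and 5 with hypoxia and PP242 in total and polysomal RNA of MCF10A, and 2 in total RNA of MDA-MB-231 and 1 for PP242 added to hypoxia in its polysomal RNA. With hypoxia and PP242 it added MMP14 (adjusted p = 0.0289), MMP10 (0.0434) and MMP28 (0.0448) in total RNA of MCF10A, MMP28 (0.039) and TIMP2 (0.0286) in its polysomal RNA, and TIMP2 (0.036) in total RNA of MDA-MB-231. In the joint fit both replicate blocks called 1 in the line difference of the hypoxia effect in each fraction, TIMP3, at an adjusted p of 0.00128 and 0.000499 with the block within each line and 0.000803 and 0.000312 with it within line and fraction. Crossing the numbers for PP242 added to hypoxia in total RNA of MDA-MB-231 gave 1095 called genes against 350 paired, with 0 members.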
